A study of Mus musculus with 9 samples.

Results

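Small nucleolar RNAs (snoRNAs) and small Cajal body RNAs were described in mouse B.END3 cells after photodynamic intervention (PDT). The members were all rows of the expression table whose gene name starts with Snord, Snora or Scarna, which gave 150 of 54532 listed genes. Of these, 99 were Snord, 42 were Snora and 9 were Scarna genes, with listed lengths from 64 to 414 bases and a median of 94. At least 1 fragment (a sequenced read pair assigned to the gene) was found in at least 1 library for 61 members, and none for the other 89. Since the reads were 150 bases long and most members are shorter than 1 read, short length and few fragments limit every value given here.

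SnoRNAs are stable non-coding RNAs that guide chemical changes on other RNAs, chiefly ribosomal RNA, within the nucleolus. Box C/D RNAs (Snord genes) carry the fibrillarin complex, which places 2′-O-methyl groups, and box H/ACA RNAs (Snora genes) carry the dyskerin complex, which turns uridine into pseudouridine. Small Cajal body RNAs (Scarna genes) have one or both kinds of box and guide the same reactions on spliceosomal RNAs in Cajal bodies. Most mammalian members are cut from introns of host genes, often genes of ribosomal proteins, so one transcript can give both a messenger RNA and a guide RNA.

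The study asked how PDT at different light doses changed gene expression in brain endothelial cells. RNA was sequenced in 9 libraries, 3 each of the groups Ctrl, Ep1 and Ep2, which the labels give as C57BL/6 brain microvessel endothelial cells. Ctrl cells were untreated, while Ep1 and Ep2 cells were given 300 µg/mL porfimer sodium, a photosensitizer, for 90 min and then 635 nm laser light at 100 mW/cm2, to 10 J/cm2 in Ep1 and 20 J/cm2 in Ep2. The photosensitizer alone and the light alone were not analysed here. All groups are 1 immortalized cell line, listed as mouse although the culture protocol calls it rat, the sources do not say whether the 3 libraries of a group came from separate cultures, and p-values therefore measure only the spread between these libraries.

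The libraries held between 16240688 and 19509225 fragments on listed genes. Of 11 endothelial marker genes, 3 had a median FPKM (fragments per kilobase of gene and per 1000000 fragments) of at least 1 (Flt1, Eng and Egfl7), and Emcn had no fragment in any library. Flt1 lay between 6.66 and 11.7 FPKM, whereas Pecam1 reached at most 0.242 and Cldn5 at most 0.0761. Of the 4 epithelial markers, the keratin Krt8 lay between 562 and 714 FPKM and Krt18 between 230.5 and 332, while Epcam had a median of 0.898 and Cdh1 reached at most 0.103. Most endothelial markers were thus at or near 0, against the label, the epithelial list was mixed, and the cells are called B.END3 here by their name only. Summed marker levels in each group ran from 11.3 to 11.8 (Ctrl), 11.2 to 13.0 (Ep1) and 14.2 to 15.3 FPKM (Ep2) for the endothelial list, and from 859 to 902, 798 to 860 and 900 to 1049 for the epithelial list, and their part in the results was not tested.

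The sequences of the members on which the results turn were read from the GENCODE M39 transcripts (annotated on GRCm39), by gene identifier. Of the 150 members, 113 had such a transcript, and all 113 sequences had the listed length. The expression table itself placed the genes on GRCm38, since 142 of 142 members compared overlapped that build and 0 of 113 overlapped GRCm39 positions. The 6 box C/D RNAs below are shown because they changed or because they lie in 1 host gene together. Capitals mark a C box match (TGATGA within the first 20 bases) and the last D box match (CTGA within the last 20 bases).
Snord104: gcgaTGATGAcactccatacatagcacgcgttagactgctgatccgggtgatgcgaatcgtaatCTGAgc
Snord49a: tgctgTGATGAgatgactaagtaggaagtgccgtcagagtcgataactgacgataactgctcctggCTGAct
Snord49b: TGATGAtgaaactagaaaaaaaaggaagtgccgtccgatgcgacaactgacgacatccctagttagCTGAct
Snord65: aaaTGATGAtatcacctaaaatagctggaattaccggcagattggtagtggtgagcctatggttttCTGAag
Snord43: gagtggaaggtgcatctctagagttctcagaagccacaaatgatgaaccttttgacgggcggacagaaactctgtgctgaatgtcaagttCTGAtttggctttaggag
Snord72: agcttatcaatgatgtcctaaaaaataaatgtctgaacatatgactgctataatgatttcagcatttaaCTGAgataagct

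Positions printed here are those that the expression table lists, on GRCm38, while the exon or intron is that of the GENCODE M39 annotation on GRCm39. Snord104 lies at chr11:106500993-106501062 (GRCm38) on the plus strand, in an exon of the long non-coding RNA gene Gm36220. On GRCm38, Snord49b (chr11:62603079-62603150), Snord49a (chr11:62603450-62603521) and Snord65 (chr11:62604515-62604586) follow each other on the plus strand and all lie in exons of the long non-coding RNA gene 2410006H16Rik. Snord43 (chr15:80082847-80082954 on GRCm38, minus strand) lies in an intron of Rpl3, and GENCODE types it as a miRNA. Snord72 (chr15:5118404-5118484 on GRCm38, plus strand) lies in an exon of an Rpl37 transcript that is marked for nonsense-mediated decay. Snord49a and Snord49b were identical at 51 of 74 aligned positions (68.9%), and Snord65 matched them at 54.5% and 54.7%. Each of the 6 had 1 identical full-length copy in the genome.

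The 2 box H/ACA RNAs with the most fragments are shown with the H box match (ANANNA in the middle of 3 equal parts of the RNA) and the ACA triplet within the last 8 bases in capitals.
Snora57: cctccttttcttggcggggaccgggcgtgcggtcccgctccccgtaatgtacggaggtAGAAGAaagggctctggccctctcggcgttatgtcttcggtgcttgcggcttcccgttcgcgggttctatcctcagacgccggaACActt
Snora31: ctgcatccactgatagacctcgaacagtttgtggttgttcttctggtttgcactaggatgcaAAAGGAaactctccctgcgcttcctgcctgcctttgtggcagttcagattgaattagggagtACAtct

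Snora57 lies at chr19:8888538-8888685 (GRCm38) on the minus strand, in an exon of the long non-coding RNA gene Gm59359. Snora31 lies at chr14:75847905-75848034 (GRCm38) on the plus strand, in an intron of Tpt1. A second genome copy with at least 90% identity was found for Snora57, so its fragments may have been divided between copies. The listed gene Lbhd1 overlaps Snora57 on the opposite strand, and strand use in counting is not given in the sources used here.

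The boxes followed the class names. TGATGA was in the first 20 bases of 64.3% of the 70 Snord genes with a sequence and of 0% of the 37 Snora genes. CTGA was in the last 20 bases of 97.1% of the Snord and 13.5% of the Snora genes. ACA was in the last 8 bases of 94.6% of the Snora and 8.57% of the Snord genes, and ANANNA, a loose pattern, in the middle part of 91.9% and 48.6%. These exact matches on the RNA strand describe the letters only, and Snord43 and Snord72 had no TGATGA in their first 20 bases.

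The 150 members held 4821 fragments over all 9 libraries. Snord genes held 2968 of them (61.6%), Snora genes 1772 (36.8%) and Scarna genes 81 (1.68%). The signal was concentrated, since the 5 members with the most fragments (Snord104, Snora57, Snord55, Snora31 and Snord49a) held 47.7%. Fragments were found in all 9 libraries for 31 members, and 18 members, 9 Snord and 9 Snora, had at least 10 fragments in at least 3 libraries. No Scarna gene reached that depth.

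**Figure D1:**
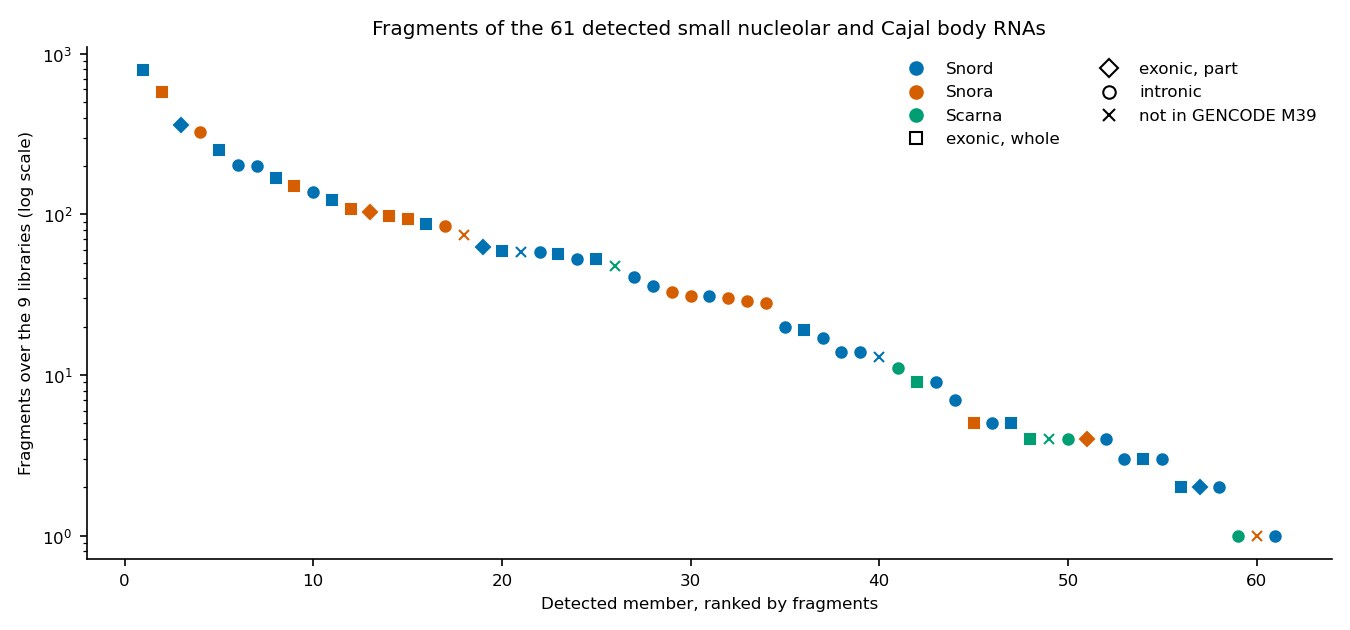
Fragments summed over the 9 libraries (log scale) of each of the 61 detected members, ranked from the highest to the lowest. Colour gives the gene class and the marker gives the GENCODE M39 location, and the values run from 789 for Snord104 to 1.

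Detection differed with the annotated position of the member. Of 34 members that lie wholly in an intron, 30 were detected (88.2%), against 20 of 71 (28.2%) that lie wholly in an exon of another transcript on the same strand and 5 of 8 that lie partly in one. The members wholly in an exon nevertheless held 2660 fragments, those partly in one 530 and the intronic ones 1433. The high first sum came with Snord104, Snora57 and Snord49a. No listed gene of the same strand holds Snord104 or Snora57, which are exonic by GENCODE M39 only. The 17 rows named Snord116l1 to Snord116l17, from a brain-enriched cluster at an imprinted locus, had no fragment in any library. For a member without a fragment, the limit that a count of 0 allows was 0.154 to 0.185 CPM (fragments per 1000000 fragments of the library) in 1 library, and 0.0183 CPM over all libraries, for counting error only. The rules for overlapping or multi-mapping fragments are not given in the sources used here, so a count of 0 may also come from the counting.

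A fragment inside an exon of a longer transcript may come from either RNA, and these data cannot tell them apart. A fragment of an intronic member may likewise come from the host transcript before splicing. The listed table also gives 141 of the 150 members a host, which is a gene of the same strand whose span holds the member.

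In summed level, the members took the smallest mean share of the libraries in Ep1. Ctrl libraries had 36.1, 35.3 and 31.2 CPM in all members together, Ep1 libraries 24.7, 26.2 and 24.5, and Ep2 libraries 24.8, 29.9 and 31.4. All Ep1 values were below all Ctrl values, while 1 Ep2 library lay within the range of Ctrl and 1, at 24.8, within that of Ep1. The group means in CPM were 34.2 ± 2.63, 25.1 ± 0.927 and 28.7 ± 3.49 (SD, n = 3 libraries each). In bulk RNA, a loss of the RNA in each cell and a change in which cells were present cannot be told apart.

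Part of this difference was Snord104 alone, which held 17.4% to 21.0% of the member fragments in Ctrl, 8.73% to 13.2% in Ep1 and 15% to 17.8% in Ep2. Without it, the sums were 28.5, 27.9 and 25.8 CPM in Ctrl, 22.5, 22.7 and 21.9 in Ep1, and 21.0, 24.6 and 26.0 in Ep2, so Ctrl and Ep1 still did not overlap. The lowest Ep2 library then lay below all Ep1 libraries. Other listed genes of at most 300 bases had 894 to 961 CPM in Ctrl, 903 to 1543 in Ep1 and 715 to 919 in Ep2, and did not show the same order.

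The fold changes were tested with limma on log2(FPKM + 1) for all 11727 genes with FPKM values of 1 or more in 3 or more libraries, and 41 members passed that filter (26 Snord, 14 Snora and 1 Scarna). A gene was called at a Benjamini-Hochberg adjusted p below 0.05 over all tested genes. In Ep1 against Ctrl, 3 members were called (1 higher, 2 lower), beside 11.3% of all tested genes (6.32% higher and 4.97% lower). In Ep2 against Ctrl, 5 were called (2 higher, 3 lower), beside 53.2% of all genes (23.9% higher, 29.3% lower). In Ep2 against Ep1, 7 were called (4 higher, 3 lower), beside 44.0% (18.8% higher, 25.2% lower). Snord70, Snora20, Snord34 and Snord110 are among these calls and passed the filter only through the group where each was high. Their calls therefore support nothing about the members.

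As shares of the 41 tested members, these were 7.32%, 12.2% and 17.1%, each below the share of all tested genes, a difference that was not tested. The depth of the members was also lower. The median tested member had 58 fragments over all libraries and a standard error of 0.37 on the log2 scale, against 5574 fragments and 0.071 for all tested genes. Among the 332 other tested genes of at most 300 bases, with a median standard error of 0.36, the shares called were 6.02%, 18.1% and 13.3%, and among the 1607 tested non-members with no more fragments than Snord104 they were 3.796%, 22.8% and 17.98%.

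An added threshold of an absolute log2 fold change above 0.6 left 3, 3 and 6 of the 41 tested members as DEGs in the 3 comparisons. Among all tested genes the shares were 0.793%, 9.17% and 5.90%. The share of members was higher than that in Ep1 against Ctrl and in Ep2 against Ep1, and lower in Ep2 against Ctrl. These differences were not tested. Snord70, Snora20, Snord34 and Snord110, admitted by the filter through the group where each was high, are among these DEGs too. The median log2 fold change of the 41 members was -0.20 in Ep1 and -0.25 in Ep2 against Ctrl and 0.02 between Ep2 and Ep1, where the medians of all tested genes were -0.01, -0.03 and -0.01. The libraries of the groups compared separated completely for 5 of the 41 members in Ep1 against Ctrl (1 higher, 4 lower). They did so for 7 in Ep2 against Ctrl (4 higher, 3 lower) and 7 in Ep2 against Ep1 (3 higher, 4 lower). Among all tested genes the shares were 41.3%, 59.7% and 54.4%. The comparisons with Ctrl share the Ctrl libraries.

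**Figure D2:**
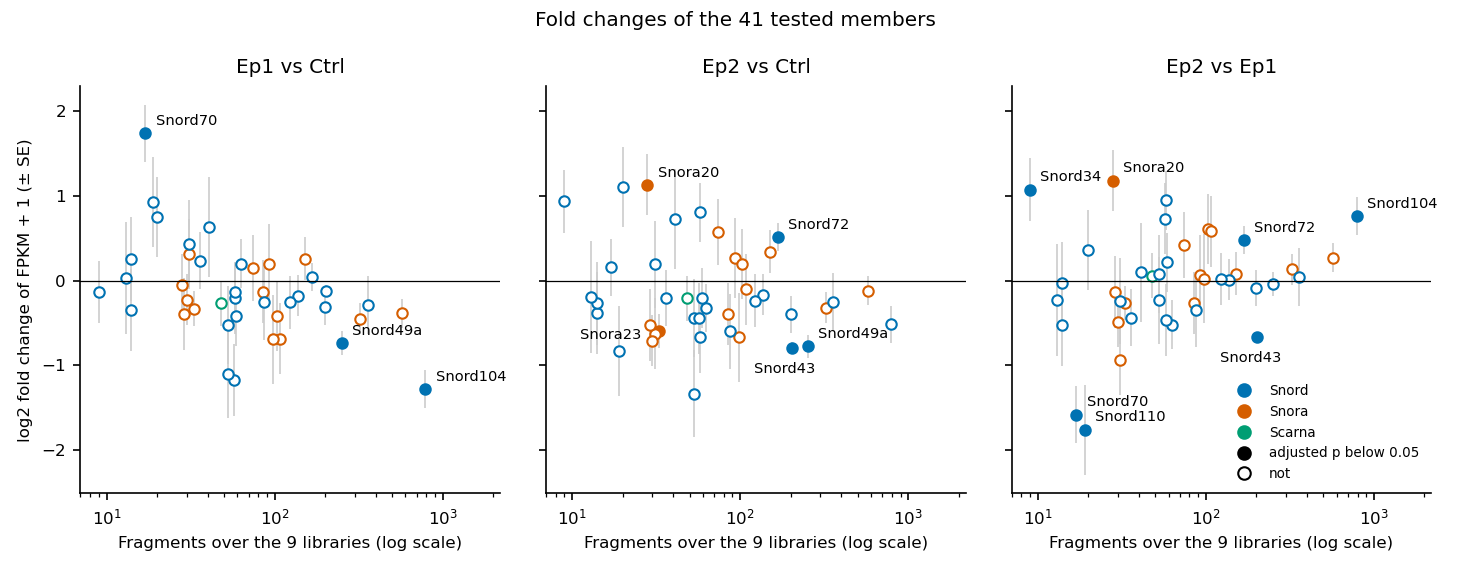
log2 fold change of FPKM + 1 with its standard error (vertical axis) against the fragments over the 9 libraries (horizontal axis, log scale) for the 41 tested members in each comparison, coloured by class. Filled points have an adjusted p below 0.05 and are named, and in Ep2 vs Ep1 the 4 named members with the largest absolute changes, Snord110, Snord70, Snora20 and Snord34, had between 9 and 28 fragments.

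Because a log scale hides counting error when a gene has few fragments, limma's voom weighting was also run on the recovered fragments of genes with at least 10 fragments in at least 3 libraries, which kept 18 members. It called 1 member in Ep1 against Ctrl, beside 13.6% of the genes tested that way, 3 in Ep2 against Ctrl, beside 50.0%, and 1 in Ep2 against Ep1, beside 41.5%. All 5 calls were of Snord104, Snord49a and Snord43.

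The 3 members called by voom were box C/D RNAs. Snord104 was the most abundant member, with 145, 144 and 99 fragments in the Ctrl libraries, 40, 58 and 49 in Ep1, and 69, 98 and 87 in Ep2. Every Ep1 library was below every Ep2 library, and every Ep2 library was below every Ctrl library. In FPKM, the means were 96.3 ± 17.4, 39.4 ± 9.34 and 67.1 ± 13.4 (SD, n = 3 libraries each).

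Snord104 fell by 1.28 ± 0.22 (log2, SE) in Ep1 against Ctrl, with an adjusted p of 0.0154 by limma and 0.000843 by voom. Its fragment rate in Ep1 was 0.400 of that in Ctrl, with an exact 95% counting interval of 0.328 to 0.484. That interval does not cover its spread between libraries. Its within-group chi-square per degree of freedom was 3.36, where 1 is the value of counting noise alone. In Ep2 the log2 difference from Ctrl was -0.52 ± 0.22, with an adjusted p of 0.0812 by limma and 0.0240 by voom, so the call depended on the test. Between the doses, Snord104 was higher in Ep2 than in Ep1 by 0.76 ± 0.22 (adjusted p = 0.0242 by limma, 0.0129 by voom).

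In these libraries the level of Snord104 thus did not follow the light dose, being lowest at 10 J/cm2. The limma call between the doses was kept in 5 of 9 fits with 1 library left out (adjusted p at most 0.0817). It was also lost with a length trend removed (adjusted p = 0.05001). The Ep1 call was lost without Ctrl replicate 1, Ctrl replicate 2, Ep1 replicate 1 or Ep1 replicate 3, with adjusted p-values of at most 0.0682 and log2 fold changes from -1.45 to -1.12 over all libraries left out in turn. All genes were also called less often in such fits (191 without Ep1 replicate 3, against 1324).

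Snord49a was lower at both doses. It had 33, 41 and 47 fragments in Ctrl, 23, 23 and 20 in Ep1, and 25, 21 and 19 in Ep2. All 6 PDT libraries were below all 3 Ctrl libraries, and the Ep1 and Ep2 libraries overlapped.

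The mean FPKM of Snord49a was 29.3 ± 5.70 in Ctrl, 17.1 ± 2.05 in Ep1 and 16.6 ± 1.44 in Ep2. The log2 difference from Ctrl was -0.73 ± 0.14 in Ep1 (adjusted p = 0.0163 by limma, 0.0671 by voom) and -0.77 ± 0.14 in Ep2 (adjusted p = 0.00156 by limma, 0.0197 by voom). The fragment rates were 0.575 of Ctrl in both groups, with exact 95% counting intervals of 0.420 to 0.783 in Ep1 and 0.418 to 0.783 in Ep2. The Ep1 call was lost without Ctrl replicate 2, Ep1 replicate 1 or Ep1 replicate 3 (adjusted p at most 0.0701), while the Ep2 call was kept under every alternative tried.

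The host of Snord49a was not called at either dose. The long non-coding RNA 2410006H16Rik had 165, 168 and 157 FPKM in Ctrl, 146, 159 and 152 in Ep1, and 217, 150 and 126 in Ep2, with log2 differences of -0.10 ± 0.17 in Ep1 (adjusted p = 0.732) and -0.03 ± 0.17 in Ep2 (adjusted p = 0.90). Its Ep2 libraries spread on both sides of the Ctrl libraries, and the difference between Snord49a and its host was not tested.

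The neighbours Snord49b and Snord65 lie in the same host and had 53 and 59 fragments in all. Snord49b had 5, 10 and 17 fragments in Ctrl, 4, 5 and 2 in Ep1, and 3, 6 and 1 in Ep2, and its log2 differences of -1.10 and -1.33 did not pass the test. Snord65 had 8, 11 and 5, then 3, 8 and 5, then 7, 8 and 4, with log2 differences of -0.42 and -0.21 that did not pass either. For both, the groups overlapped.

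**Figure D3:**
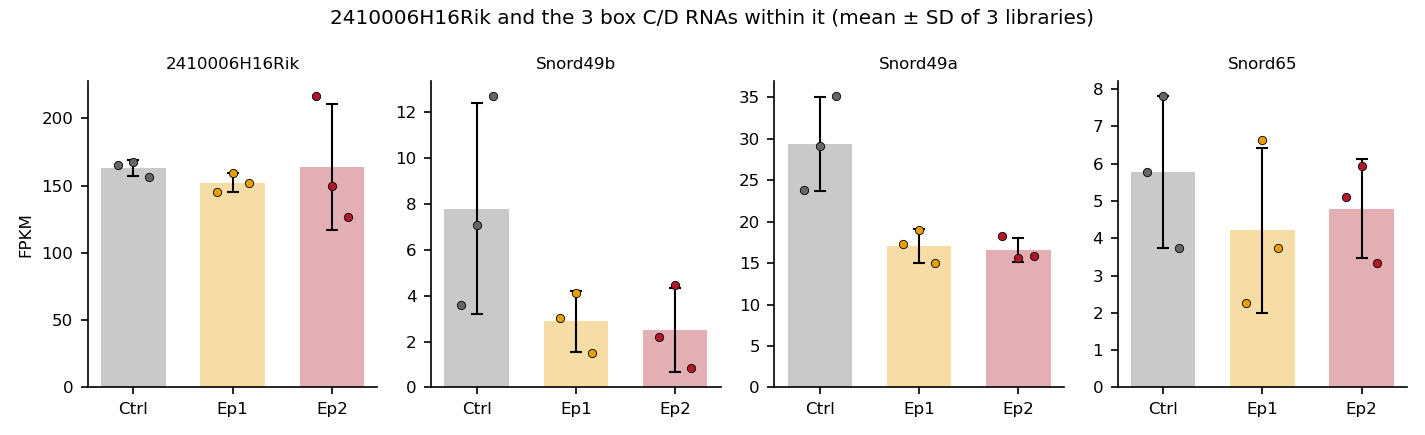
FPKM (vertical axes, each from 0) in each library of Ctrl, Ep1 and Ep2 for the host 2410006H16Rik and the 3 box C/D RNAs in its exons, where points are libraries, bars are means and error bars are SD of 3 libraries. The Snord49a points of Ep1 and Ep2 all lie below those of Ctrl, while the host's points in Ep1 and in Ep2 overlap those of Ctrl.

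Snord43 was lower at the higher dose. It had 28, 30 and 27 fragments in Ctrl, 25, 21 and 27 in Ep1, and 14, 16 and 14 in Ep2, and all Ep2 libraries were below all others. Its log2 difference in Ep2 was -0.79 ± 0.07 from Ctrl (adjusted p = 2.06e-05 by limma, 0.0209 by voom) and -0.67 ± 0.07 from Ep1 (adjusted p = 7.85e-05 by limma, 0.0589 by voom).

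The small limma error of Snord43 rests on libraries that agreed more closely than counting noise gives on average. Its within-group chi-square per degree of freedom was 0.0820, where 1 is the value of counting noise alone, and the exact counting interval of its rate in Ep2 against Ctrl ran from 0.376 to 0.806 around 0.554. Over the 18 members with at least 10 fragments in 3 libraries, that chi-square ratio had a median of 1.69 and a range from 0.0820 to 4.02.

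Rpl3, a ribosomal protein gene and the host of Snord43, was lower in Ep2 by a smaller amount, -0.22 ± 0.04 (adjusted p = 0.00234). Snord83b, also placed in Rpl3, had 123 fragments in all and a log2 difference of -0.24 that did not pass the test. The difference between Snord43 and its host was not tested.

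Snord72 moved the other way. It had 20, 15 and 15 fragments in Ctrl, 16, 12 and 21 in Ep1, and 21, 25 and 23 in Ep2. The Ep2 libraries were above all Ctrl libraries in FPKM (15.7 ± 1.87 against 10.7 ± 1.80) but overlapped those of Ep1.

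Snord72 was higher in Ep2 by 0.51 ± 0.17 (adjusted p = 0.0295) against Ctrl and by 0.48 ± 0.17 (adjusted p = 0.0477) against Ep1 with limma, and it was not called by voom (adjusted p = 0.160 and 0.228). The Ep2 against Ctrl call was lost without Ctrl replicate 2, Ctrl replicate 3, Ep2 replicate 2 or Ep2 replicate 3 (adjusted p at most 0.0974). The Ep2 against Ep1 call was lost without Ctrl replicate 2 or 3, Ep1 replicate 1 or 2, or Ep2 replicate 2 or 3 (adjusted p at most 0.136). Its host Rpl37, a ribosomal protein gene, was lower, by -0.45 ± 0.10 in Ep1 (adjusted p = 0.0266) and -0.50 ± 0.10 in Ep2 (adjusted p = 0.00276).

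**Figure D4:**
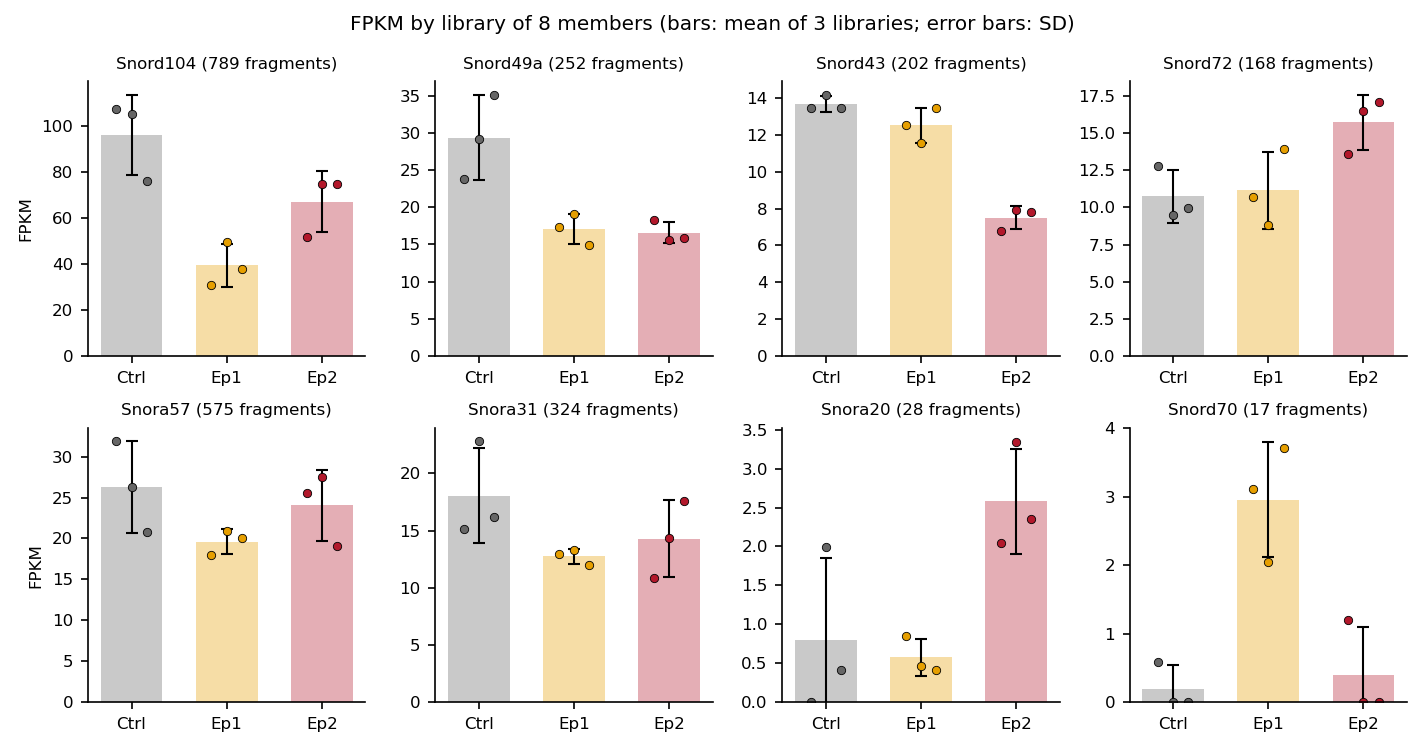
FPKM (vertical axes, each from 0) of 8 members in each library of Ctrl, Ep1 and Ep2, where points are libraries, bars are group means and error bars are SD of 3 libraries. Snord104 is lowest in Ep1, Snord49a is low in Ep1 and Ep2, Snord43 is low in Ep2, and the Snora20 and Snord70 panels rest on 28 and 17 fragments in all.

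Abundant box C/D RNAs without a call included Snord55 and Snord53. Snord55 had 35, 59 and 45 fragments in Ctrl, 50, 30 and 27 in Ep1, and 23, 44 and 45 in Ep2, with overlapping groups. Its log2 differences from Ctrl were -0.29 ± 0.34 and -0.25 ± 0.34, and its exact counting intervals, 0.625 to 1.05 and 0.666 to 1.11, do not cover its spread between libraries, which had the highest chi-square ratio (4.02). Snord53, in an intron of the ribosome biogenesis gene Wdr43, had 34, 20 and 28, then 23, 17 and 20, then 19, 25 and 14 fragments, with log2 differences of -0.31 and -0.40 (SE 0.21).

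No box H/ACA RNA with at least 10 fragments in 3 libraries was called in any comparison. Snora57 had 91, 76 and 57 fragments in Ctrl, 49, 52 and 55 in Ep1, and 72, 76 and 47 in Ep2, with overlapping groups in FPKM. Its log2 difference in Ep1 was -0.39 ± 0.17 (adjusted p = 0.177), with a counting interval of 0.595 to 0.905 around a rate ratio of 0.735.

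Snora31 had 38, 58 and 39 fragments in Ctrl, 31, 29 and 29 in Ep1, and 27, 35 and 38 in Ep2. Its Ep1 libraries were all below Ctrl in FPKM, yet the log2 difference of -0.45 ± 0.18 had an adjusted p of 0.150. Its host Tpt1, a translationally controlled gene, was higher in Ep2 by 0.16 ± 0.03 (adjusted p = 0.00332), where the member's log2 difference was -0.32 ± 0.18 (adjusted p = 0.183).

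The next most abundant were Snora17, Snora41 and Snora2b, each with at least 1 other genome copy of at least 90% identity. Snora17, in the long non-coding RNA gene Snhg7, had log2 differences of 0.26 and 0.34 (SE 0.26). For Snora41, in the translation factor gene Eef1b2, they were -0.68 and -0.11 (SE 0.42). For Snora2b, in Kansl2, they were -0.41 and 0.19 (SE 0.41).

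The remaining calls were of members with few fragments. Snord70, in an intron of Nop58, had 1, 0 and 0 fragments in Ctrl, 5, 3 and 6 in Ep1, and 2, 0 and 0 in Ep2. All Ep1 libraries were above all others, at a log2 difference of 1.74 ± 0.34 from Ctrl (adjusted p = 0.0181) and with Ep2 lower than Ep1 by -1.58 ± 0.34 (adjusted p = 0.00521). The ratio of its rates in Ep1 and Ctrl was 14.8, with an exact interval from 2.25 to 624, since Ctrl held 1 fragment in all.

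Snora20, in an intron of the chaperonin gene Tcp1, had 0, 5 and 1 fragments in Ctrl, 2, 1 and 1 in Ep1, and 5, 8 and 5 in Ep2. It was higher in Ep2 by 1.13 ± 0.36 against Ctrl (adjusted p = 0.0279) and by 1.18 ± 0.36 against Ep1 (adjusted p = 0.0285). The exact interval of the rate ratio to Ctrl ran from 1.22 to 9.88. Snora23, in an intron of the import receptor gene Ipo7, had 4, 5 and 7 fragments in Ctrl, 4, 2 and 4 in Ep1, and 4, 2 and 1 in Ep2, and was lower in Ep2 than in Ctrl by -0.60 ± 0.20 (adjusted p = 0.0316), with overlapping groups and a counting interval of 0.163 to 1.20.

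Snord110, in an exon of a Nop56 transcript, had 4, 2 and 0 fragments in Ctrl, 2, 5 and 5 in Ep1, and 0, 1 and 0 in Ep2. It was lower in Ep2 than in Ep1 by -1.76 ± 0.53 (adjusted p = 0.0289). Snord34, in an intron of the ribosomal protein gene Rpl13a, had 0, 2 and 0, then 0, 1 and 0, then 2, 2 and 2 fragments, and was higher in Ep2 than in Ep1 by 1.07 ± 0.37 (adjusted p = 0.0433).

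Snord70, Snora20 and Snord34 each reached an FPKM of 1 in only 4 libraries, 3 of them of the group where the member was high, so the filter admitted them through that group. Snord110 reached it in 5 libraries, 3 of them of Ep1, and would not have passed without those 3. Leaving out 1 library also ended these calls, with adjusted p-values of at most 0.132. In Ep2 against Ctrl, Snora20 lost its call without Ctrl replicate 1 or 3 or Ep2 replicate 2 or 3, and Snora23 without Ctrl replicate 2 or 3 or Ep2 replicate 2 or 3. In Ep2 against Ep1, Snora20 lost it without Ep1 replicate 2 or 3 or Ep2 replicate 2 or 3, Snord110 without Ep1 replicate 2 or 3 or Ep2 replicate 1 or 3, and Snord34 without Ep1 replicate 1 or 3 or any 1 Ep2 library. Snord70 lost its Ep1 against Ctrl call without Ctrl replicate 2, Ep1 replicate 1 or Ep1 replicate 3, and kept the call between the doses. None of these 5 had enough fragments for voom.

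Small Cajal body RNAs were near the limit of detection. Scarna13, with 48 of the 81 Scarna fragments, had 10, 5 and 5 fragments in Ctrl, 3, 2 and 9 in Ep1, and 6, 3 and 5 in Ep2, with overlapping groups. Its log2 differences from Ctrl were -0.27 ± 0.26 (adjusted p = 0.532) and -0.21 ± 0.26 (adjusted p = 0.526), and the exact interval of its rate ratio in Ep2 ran from 0.350 to 1.56.

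Scarna6 had 11 fragments over all libraries, Scarna17 had 9, and Scarna2, Scarna3a and Scarna8 had 4 each. Of the 9 Scarna17 fragments, 5 came from Ep1 replicate 2. A difference between groups was not detectable at this depth for any of them, and Scarna10 and Scarna3b had no fragment.

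The host genes gave a deeper view of the same loci. Of the 12 tested hosts of members with at least 10 fragments in 3 libraries, 2 were lower in Ep1 and none higher. In Ep2, 5 were lower and 1 was higher than in Ctrl. Of all 83 tested hosts, 11 were called in Ep1 (13.3%), beside 11.3% of all tested genes, and 41 in Ep2 (49.4%, 5 higher and 36 lower), beside 53.2% (23.9% higher and 29.3% lower). The median log2 differences of the 83 hosts from Ctrl were -0.04 and -0.14.

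The protein genes of the guide RNA particles were lower at the higher dose. All 20 listed genes of the particles, their assembly and Cajal bodies were tested. In Ep2 against Ctrl 16 of them fell and none rose, beside 29.3% of all tested genes that fell, in Ep2 against Ep1 19 fell and none rose, beside 25.2%, and in Ep1 against Ctrl none was called by limma (4 had an unadjusted p below 0.05, and voom called 2, both higher). Their median log2 differences were 0.02, -0.47 and -0.49 for Ep1 against Ctrl, Ep2 against Ctrl and Ep2 against Ep1.

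Among the box C/D core proteins, the methyltransferase Fbl fell by 0.58 ± 0.04 in Ep2 (adjusted p = 1.0e-05), from 54.95, 56.4 and 55.7 FPKM in Ctrl to 37.7, 37.4 and 35.4. Snu13, which binds the box C/D fold, fell by 0.51 ± 0.05, and Nop56 fell by 0.32 ± 0.07. Nop58 had a log2 difference of -0.17 ± 0.07 (adjusted p = 0.0579).

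All 4 box H/ACA core proteins fell. Nhp2 had 241, 245 and 246 FPKM in Ctrl, 210, 245 and 231 in Ep1, and 112, 122 and 108 in Ep2, and fell by 1.10 ± 0.06 on the log2 scale. The Ep2 libraries were all below the others. The pseudouridine synthase Dkc1 fell by 0.56 ± 0.10, Gar1 by 0.55 ± 0.08 and Nop10 by 0.39 ± 0.08.

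Of the Cajal body genes, Wrap53, which brings scaRNAs to Cajal bodies, fell by 0.63 ± 0.08 in Ep2 (adjusted p = 0.000179). Coil, the gene of the scaffold protein coilin, had a log2 difference of -0.17 ± 0.07 in Ep2 (adjusted p = 0.0585) and 0.25 ± 0.07 in Ep1 (adjusted p = 0.05002, just above the threshold). The assembly ATPases Ruvbl1 and Ruvbl2 fell by 0.86 ± 0.07 and 0.70 ± 0.06 in Ep2. Naf1, an H/ACA assembly factor, and Nufip1, a C/D assembly factor, were not called (adjusted p = 0.119 and 0.598).

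**Figure D5:**
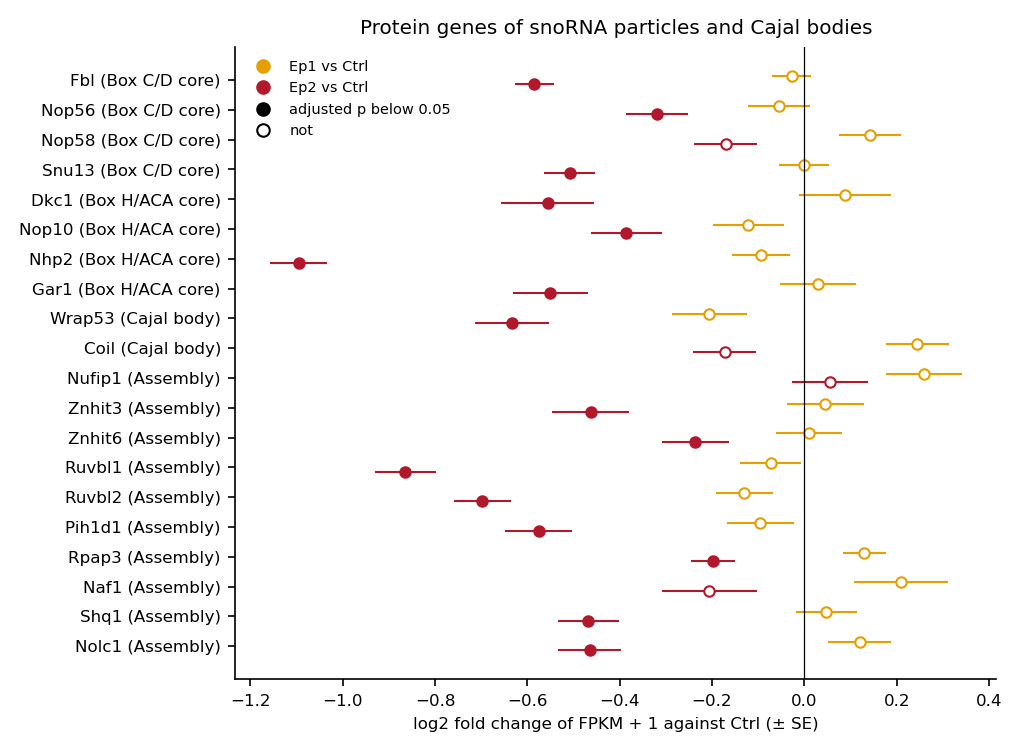
log2 fold change of FPKM + 1 with its standard error (horizontal axis) of the 20 protein genes, named with their role, in Ep1 and in Ep2 against Ctrl. Filled points have an adjusted p below 0.05, which holds for 16 genes in Ep2, all to the left of 0, and for none in Ep1.

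Set side by side, Snord104 was lowest in Ep1, where none of the 20 protein genes was called by limma. In Ep2, Fbl, Snu13 and Nop56 fell. There limma called the box C/D RNAs Snord49a and Snord43 lower and Snord72 higher, and voom also called Snord104 lower. A link between the RNAs and the protein genes was not tested. In Ep2, where Nhp2, Dkc1 and Gar1 fell, none of the 9 Snora genes with at least 10 fragments in 3 libraries was called. At the depth of these RNAs this does not show that they stayed level.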

How the data were processed

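RNA was sequenced from 9 B.END3 libraries (3 each of Ctrl, Ep1 and Ep2). The authors deposited 1 FPKM value per gene and library. Read length was 150 bases, paired-end. The submitters' processing notes name Bowtie 0.12.2 and mm8, the methods name GRCm39, and the listed coordinates lie on GRCm38. The counter, multi-mapping and strand rules are not given in the sources used here, nor whether small RNAs were removed by size, which would lower the level of every member.

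FPKM times listed length was a whole multiple of 1 step per library for 100% of the values checked, within 0.05, which gave the fragments. Values of genes with the most fragments in a library were not checked. The single-library tables equal the joint table (0 differences). Groups came from library titles. limma 3.58.1 (R 4.3.3; trend and robust options) was fitted to log2(FPKM + 1) of genes with FPKM at least 1 in at least 3 libraries, over all 9 libraries without covariates, two-sided, with Benjamini-Hochberg adjustment within each comparison. The pseudocount of 1 understates changes of low genes. voom used normalization factors computed by the trimmed-mean method in own code. Exact conditional (Clopper-Pearson) 95% intervals of fragment rates pool 3 libraries a group and cover counting error only. Sequences came from the GENCODE M39 transcripts, and copies from a BLAST 2.17.0 search of GRCm39. The statistics were tested on simulated data in which only genes above a minimum level and depth were changed, with 1 setting of spread for all genes. That test does not cover members with few fragments or a wider spread.

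Named members were the 5 Snord, 5 Snora and 5 Scarna genes with the most fragments, all called members, and the most abundant uncalled ones. Snord49b, Snord65, Snord83b, Scarna10 and Scarna3b were named after their values were seen, as was Scarna8, which tied with Scarna2 and Scarna3a. Members and lists were chosen with earlier results of these data known. Alternatives were median centring, other pseudocounts, units, filters and fits, and leaving out each library.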

Additional observations from a re-analysis of the deposited data

Results flagged for a closer look

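For 7 members the effects of the doses differed in the test of Ep2 against Ep1 itself (limma, adjusted p below 0.05). Snord104 was higher in Ep2 by 0.76 on the log2 scale, Snora20 by 1.18, Snord34 by 1.07 and Snord72 by 0.48. Snord43 was lower in Ep2 with a log2 difference of -0.67, Snord70 with -1.58 and Snord110 with -1.76. Of these, Snord104 was also called with voom on fragments, Snord43 and Snord72 were not, and the other 4 had too few fragments for it. Those 4 (Snora20, Snord34, Snord70 and Snord110) passed the filter on low values only through the group where each was high. Their differences are therefore given as values and support nothing. With 3 libraries a group, single libraries were not tested as outliers.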

How the results depend on the processing

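Counts of called members depended on the processing, from 3 (Ep1 against Ctrl), 5 (Ep2 against Ctrl) and 7 (Ep2 against Ep1). Without a filter they were 1, 2 and 3, and with voom 1, 3 and 1. With log2(CPM + 0.5), 3 members were called in Ep2 against Ctrl and 2 in Ep2 against Ep1, and with a mean FPKM of at least 5, or at least 10 fragments in 3 libraries, 3 were called in each. A pseudocount of 0.1, or removal of a length trend, gave 4 in Ep2 against Ep1. With 1 library left out the counts ran from 0 to 3, 3 to 6 and 3 to 8, with 0 in Ep1 against Ctrl without Ctrl replicate 2, Ep1 replicate 1 or Ep1 replicate 3, and the lowest counts of both other comparisons without Ep2 replicate 3. The same-numbered libraries did not deviate together (correlations from -0.06 to 0.07, against -0.11 to 0.15 for differently numbered ones). Whether they were handled together is not given in the sources used here, and so few libraries cannot exclude it. With the number as a replicate block 9 members were called in Ep2 against Ctrl. Protein genes called in Ep1 against Ctrl, 0 at first, were 2 with log2(CPM + 0.5), 2 with a mean FPKM of at least 5, 2 with voom, 1 with the replicate block, 4 with only those groups, 1 with the length trend removed, and 0 to 5 with 1 library left out (5 without Ep2 replicate 1, 2 without Ep2 replicate 3). Their Ep2 counts stayed within 15 to 20.

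Of 15 called log2 fold changes none changed sign under any alternative, but 34 of 129 refits with another setting and 45 of 135 with 1 library left out lost the call. Snord43 and Snord49a in Ep2 against Ctrl lost it in none. Uncalled values that changed sign were Snora20 in Ep1 against Ctrl (0.45 with pseudocount 0.1), Snord49a in Ep2 against Ep1 (0.015 with median centring) and Snord55 in Ep2 against Ep1 (-0.038 with the length trend removed), and others with 1 library left out. In Ep2 against Ep1 they ran from -0.12 to 0.35 (Scarna13), from -0.21 to 0.31 (Snora17), from -0.021 to 0.30 (Snora31), from -0.13 to 0.036 (Snord49a), from -0.25 to 0.056 (Snord53), from -0.18 to 0.38 (Snord55). In Ep1 against Ctrl they ran from -0.40 to 0.39 (Snora20), from -0.43 to 0.30 (Snord34), from -0.12 to 0.18 (Snord72). In Ep2 against Ctrl they ran from -0.032 to 0.55 (Snora2b), from -0.55 to 0.25 (Snora41), from -0.27 to 0.030 (Snora57), from -0.47 to 0.089 (Snord55), from -0.22 to 0.38 (Snord70). The causes were not tested. Few fragments per member limit all of these values.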
